A study of Mus musculus with 4 samples.

Results

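The genes described here are the nuclear-encoded members of oxidative phosphorylation, taken from the deposited table by their symbols: the Nduf subunits of complex I, Sdha to Sdhd of complex II, the Uqcr genes of complex III, the numbered Cox subunits of complex IV and the Atp5 genes of complex V. They made up 83 of 43998 entries, with 37 genes of complex I, 4 of complex II, 8 of complex III, 17 of complex IV and 17 of complex V. The mutant group was THY1+ spermatogonia from testes of C57BL/6 mice on postnatal day 4 with impaired retinoid signalling specific to germ cells, and the control group was the same fraction from control mice of that strain and age. Each group had 2 libraries. Neither the modified gene nor what restricts it to germ cells is given in the labels, nor whether the libraries came from separate animals. THY1 (CD90.2) beads enrich undifferentiated spermatogonia and leave some somatic cells in the fraction.

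Oxidative phosphorylation makes most of the ATP of a respiring cell. Complex I oxidises NADH and complex II oxidises succinate, and both pass electrons to ubiquinone. Complex III hands them to cytochrome c, complex IV passes them to oxygen, and complex V uses the resulting proton gradient to make ATP. Complexes I, III, IV and V also hold subunits made from mitochondrial DNA, so their nuclear and mitochondrial genes must both be expressed. In the testis, several subunits have paralogs with expression restricted to germ cells.

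Levels are given as RPKM, reads scaled to transcript length and sequencing depth, and the table joins the libraries of a genotype in 1 value. The spread between libraries is thus unknown, no test between genotypes could be made, and neither SD nor p-value is given. A log2 difference below is log2((mutant RPKM + 1)/(control RPKM + 1)), in which the added 1 shrinks the differences of scarce transcripts. Low values stepped in whole reads, which placed the depth near 57.3 M reads for the mutant column and 56.5 M reads for the control column, unless another scaling entered. At this depth 100 RPKM in a transcript of 655 nt, the median length of the genes described here, stood for about 2550 mutant reads (95% Poisson interval 2452 to 2651) and 2514 control reads (2417 to 2614). These intervals cover counting error only.

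Almost the whole set was lower in the mutant value. In 82 of the genes at least 1 genotype reached 1 RPKM. Of these, 78 were lower and 4 higher, while 49.7% of all 17278 entries that reached this level were lower and 50.3% higher, and 55.6% of the 12618 protein-coding ones were lower. Their median log2 difference was -0.42, against 0.0044 over all entries and -0.063 over protein-coding entries. Most differences were of modest size: 51 genes were lower by 20 to 40%, 8 by 40% or more, and 21 were within 20% of control. The shares of all entries in these bands were not computed. The log2 differences ran from -1.33 for Atp5e to 0.53 for Cox7b2. Their quartiles were -0.58 and -0.29, against -0.35 and 0.33 over all entries and -0.39 and 0.23 over protein-coding entries. By a 1.5-fold rule 21 genes were lower and 0 higher, where 13.7% of all entries and 14.9% of protein-coding entries were lower and 12.6% of all entries higher. This count depended on the scaling: after quantile normalization 10 of 82 genes (12.2%) were lower by 1.5-fold against 14.4% of all entries, and without the trend with mean RPKM 11 (13.4%) against 14.6%. By a 2-fold rule 2 genes were lower, Atp5e and Cox7a1, and 0 higher, where 4.33% of all entries were lower and 4.38% higher. Over the 67 genes with at least 50 RPKM in both genotypes, 66 were lower and Cox7b2 was higher. The share of all entries of that level that were lower was not computed. Without the trend with mean RPKM, 74 of 82 genes were lower, against 49.99% of all entries of 1 RPKM or more, and the median of the set was -0.32.

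The complexes had ratios close to each other. Summed over its members, complex I stood at 3722 RPKM in mutant and 4988 RPKM in control, a ratio of 0.746. Complex II stood at 502 RPKM in mutant and 699 RPKM in control (ratio 0.718), and complex III at 1229 RPKM in mutant and 1685 RPKM in control (ratio 0.729). The ratios were 0.744 for complex IV (2623 RPKM in mutant, 3524 RPKM in control) and 0.718 for complex V (3570 RPKM in mutant, 4970 RPKM in control). Their median log2 differences lay between -0.48 for complex IV and -0.40 for complex I. Over all entries of 1 RPKM or more the same ratio of sums was 0.895. All 37 genes of complex I, 4 of complex II and 8 of complex III were lower, as were 14 of 16 in complex IV and 15 of 17 in complex V, although after quantile normalization Ndufa7, Ndufb9 and Ndufv1 of complex I and Cox7a2l and Cox7b of complex IV were higher. Without the trend of length and GC content, 29 of 37 genes of complex I, 12 of 16 of complex IV and 14 of 16 of complex V were lower, and all of complexes II and III.

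**Figure D1:**
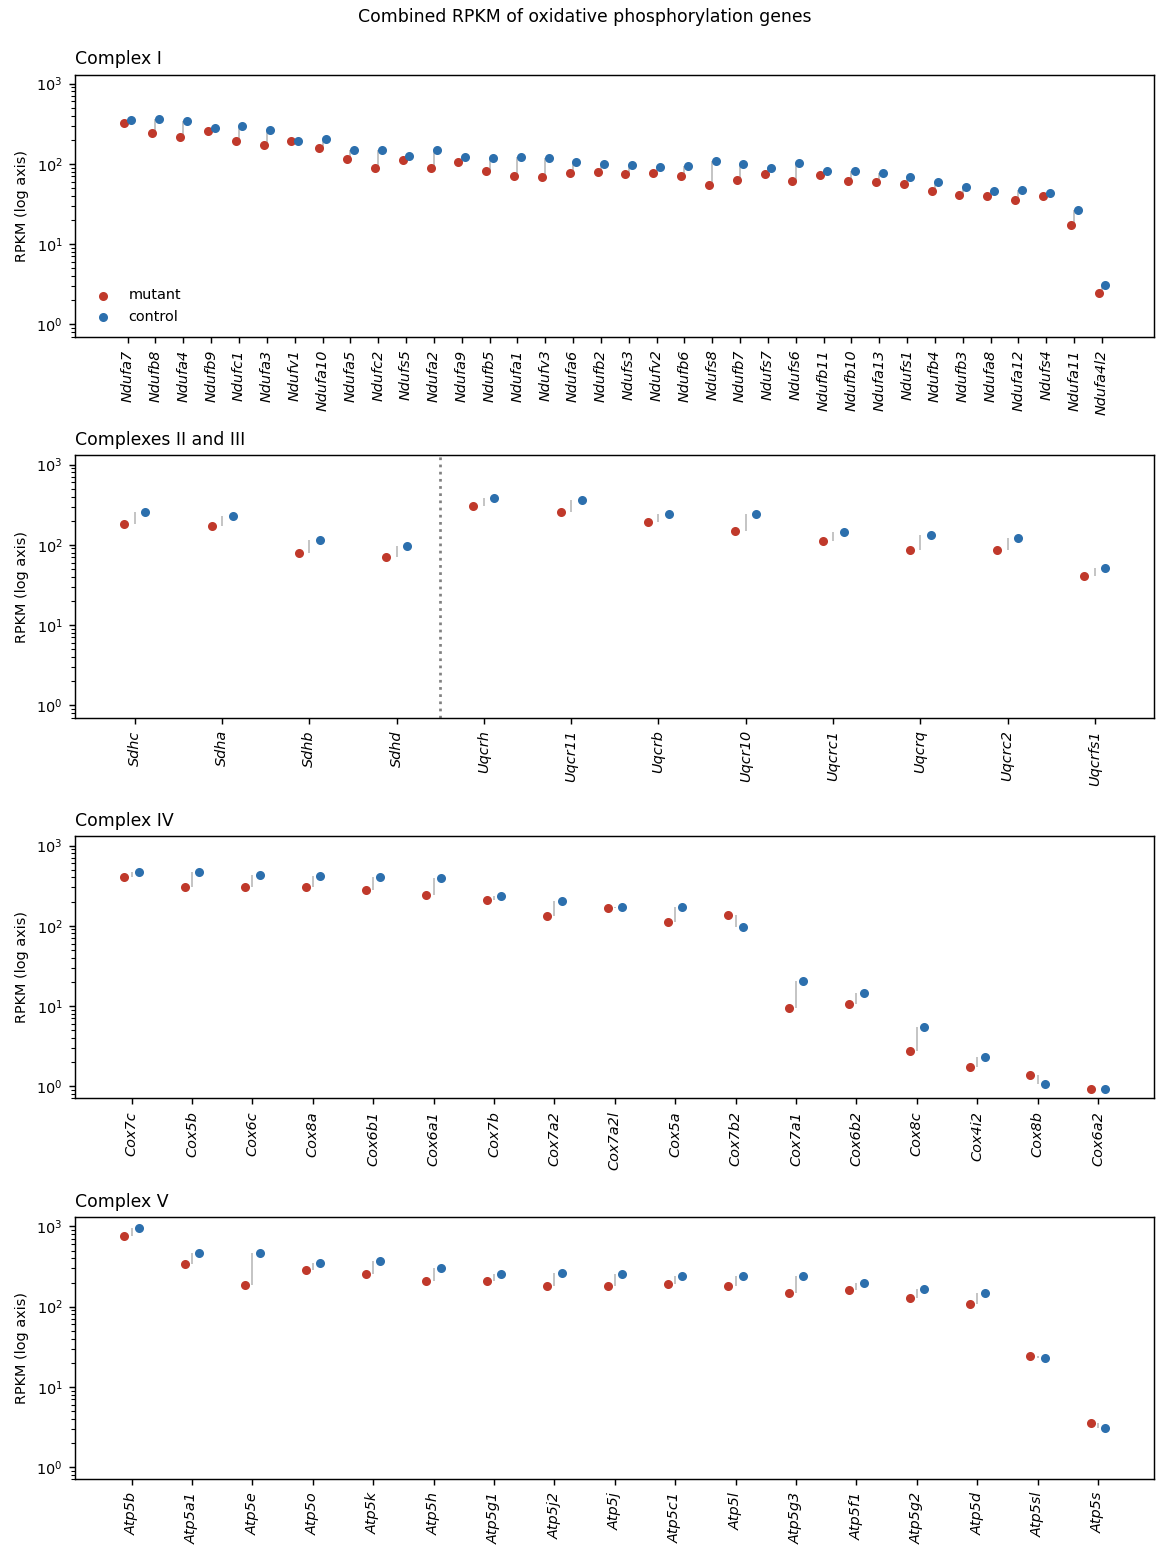
RPKM of the genes (log axis) in the mutant (red) and control (blue) columns, 1 combined value per genotype, by complex and ordered by mean level. The mutant point lies below the control point in nearly every pair; Cox7b2 at 138 RPKM in mutant and 95.3 RPKM in control is the exception among the abundant genes, and was lower (log2 difference -0.096) when germ cell markers were scaled to 0.

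In complex I the 7 nuclear core subunits carry the flavin and the iron-sulfur clusters that move electrons from NADH to ubiquinone. Ndufv1, which binds NADH and the flavin, was nearly equal at 190 RPKM in mutant and 195 RPKM in control (log2 difference -0.032). Its partner Ndufv2 was at 76.6 RPKM in mutant and 92.3 RPKM in control. Ndufs1, the large iron-sulfur subunit, was at 56.4 RPKM in mutant and 68.5 RPKM in control. These differences were smaller than the median of the set.

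The core subunits that line the path to ubiquinone ranged more widely. Ndufs3 was at 74.8 RPKM in mutant and 96.6 RPKM in control, and Ndufs7 at 74.0 RPKM in mutant and 88.5 RPKM in control. Ndufs8, which holds iron-sulfur clusters next to Ndufs7, had the largest difference in complex I, at 54.6 RPKM in mutant and 109 RPKM in control (1.99-fold lower, log2 difference -0.98). Its entry lies on chromosome 19 from 3908870 to 3912717 in GRCm38. The median log2 difference was -0.28 over the 7 core subunits and -0.41 over the 30 other complex I genes. A difference between these medians was not tested.

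Leaving out Ndufa4 and Ndufa4l2, 28 genes of complex I lie outside the core, most of them for accessory subunits that surround and stabilise it. Of these, 9 were lower by 1.5-fold or more, a rule met by 13.7% of all entries and 14.9% of protein-coding entries. Ndufv3 was at 67.7 RPKM in mutant and 117 RPKM in control, Ndufc2 at 88.0 RPKM in mutant and 150 RPKM in control, and Ndufa1, an X-linked subunit of the membrane arm, at 71.3 RPKM in mutant and 121 RPKM in control. Ndufa2 was at 87.7 RPKM in mutant and 148 RPKM in control, and Ndufs6, a zinc-binding subunit, at 61.2 RPKM in mutant and 101 RPKM in control. Others differed little. The complex I gene with the highest mean level, Ndufa7, was at 328 RPKM in mutant and 349 RPKM in control (log2 difference -0.089). Ndufb9 was at 253 RPKM in mutant and 282 RPKM in control. Ndufb8 was at 245 RPKM in mutant and 361 RPKM in control, in an entry that also carries the symbols Sec31b and Gm20538. The 3 X-linked genes of the set, Ndufa1, Ndufb11 and Cox7b, had log2 differences of -0.75, -0.14 and -0.17.

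Complex II is the member of the chain with no mitochondrially encoded subunit, and it also works in the TCA cycle as succinate dehydrogenase. Its 4 genes were lower by nearly the same amount. The flavoprotein gene Sdha was at 172 RPKM in mutant and 232 RPKM in control, and the iron-sulfur subunit gene Sdhb at 78.0 RPKM in mutant and 116 RPKM in control. The membrane anchor genes Sdhc and Sdhd were at 183 RPKM in mutant and 254 RPKM in control, and at 69.5 RPKM in mutant and 97.9 RPKM in control. The log2 differences ran from -0.56 for Sdhb to -0.43 for Sdha.

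In complex III the abundant genes were Uqcrh, the hinge subunit, at 307 RPKM in mutant and 381 RPKM in control, and Uqcr11 at 258 RPKM in mutant and 364 RPKM in control. Uqcrfs1, the Rieske iron-sulfur protein that passes electrons towards cytochrome c, had the lowest level of the complex, at 41.2 RPKM in mutant and 51.9 RPKM in control. The core proteins Uqcrc1 and Uqcrc2 were at 110 RPKM in mutant and 146 RPKM in control, and at 87.0 RPKM in mutant and 123 RPKM in control. Past 1.5-fold were the small subunits Uqcr10, at 149 RPKM in mutant and 245 RPKM in control, and Uqcrq, at 85.5 RPKM in mutant and 133 RPKM in control. Uqcrb was at 191 RPKM in mutant and 241 RPKM in control, in an entry that spans 97.8 kb where the annotated gene spans 4.76 kb. Cytochrome b, the mitochondrially encoded subunit of this complex, was measured in an entry joined with the threonine transfer RNA, mt-Cytb,mt-Tt, at 1482 RPKM in mutant and 1300 RPKM in control (log2 difference 0.19). This was the 1 of 13 mitochondrial protein genes analysed here, and its direction was the opposite of that of the nuclear genes of its complex, except with germ cell markers scaled to 0, where it was -0.44. Another mitochondrial entry, of transfer RNAs only, was lower, at 780 RPKM in mutant and 960 RPKM in control (log2 difference -0.30).

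The nuclear subunits of complex IV surround a catalytic core made in the mitochondrion. The 3 with the highest mean levels were Cox7c, at 405 RPKM in mutant and 470 RPKM in control, Cox5b, at 304 RPKM in mutant and 474 RPKM in control, and Cox6c, at 304 RPKM in mutant and 434 RPKM in control. The Cox6c entry spans 567 kb where the annotated gene spans 12.4 kb, and may hold reads of other genes. Over the whole set, 12 genes have an entry more than 3 times as long as the annotated gene. Besides Cox6c and Uqcrb they include Cox6a2 (69.4 kb against 0.953 kb), Ndufb11, Ndufs1, Ndufa2, Ndufa4l2, Ndufb8 and Atp5d. Cox5a, whose product binds next to Cox5b, was at 111 RPKM in mutant and 172 RPKM in control. Cox4i1 was not analysed here.

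In complex V the catalytic beta subunit gene Atp5b had the highest level of the set, at 767 RPKM in mutant and 958 RPKM in control (log2 difference -0.32). The alpha subunit gene Atp5a1 was at 345 RPKM in mutant and 473 RPKM in control, and the gamma subunit gene Atp5c1, of the central stalk, at 190 RPKM in mutant and 244 RPKM in control. Atp5e, the epsilon subunit of the same stalk, had the largest difference of all 82 genes, at 187 RPKM in mutant and 470 RPKM in control (2.51-fold lower, log2 difference -1.33). Its entry lies on chromosome 2 from 174461072 to 174464105 in GRCm38. The delta subunit gene Atp5d, also of this stalk, was at 107 RPKM in mutant and 146 RPKM in control, so its difference was near the median of the set. Atp5o, which encodes the peripheral stalk protein OSCP, shares an entry with Donson and was at 289 RPKM in mutant and 355 RPKM in control. Genes named Atp5s and Atp5sl match the symbol rule without encoding structural subunits of the enzyme. They were slightly higher in the mutant, Atp5sl at 24.0 RPKM in mutant and 23.0 RPKM in control, and Atp5s at 3.57 RPKM in mutant and 3.10 RPKM in control. The Atp5s values stood for about 104 mutant reads (95% Poisson interval 85 to 126) and 89 control reads (71 to 110), and each interval holds the other value.

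**Figure D2:**
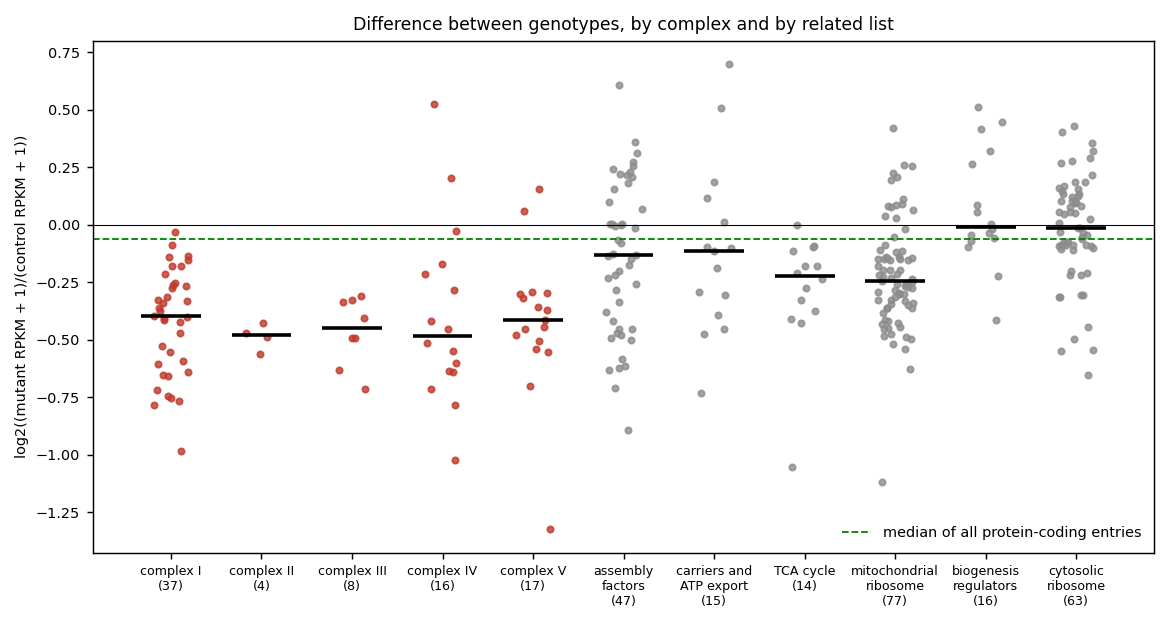
Log2 differences, mutant over control, of the genes of each complex (red) and of related gene lists (grey), with the median of each as a black bar and the number of genes of 1 RPKM or more in parentheses. The 5 complexes have medians between -0.48 and -0.40, while the cytosolic ribosomal protein genes are centred at -0.015.

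Paralogous isoforms differed in direction. Cox7b2, a paralog of Cox7b expressed mainly in testis, was higher in the mutant, at 138 RPKM in mutant and 95.3 RPKM in control (log2 difference 0.53). Its entry covers chromosome 5 from 71442824 to 71548205. Cox7b itself was at 210 RPKM in mutant and 236 RPKM in control. Outside the symbol rule, other germ cell forms of the same pathway were higher as well. Cyct, the testis form of cytochrome c, was at 70.3 RPKM in mutant and 42.9 RPKM in control, while the somatic form Cycs was at 35.9 RPKM in mutant and 47.4 RPKM in control. Among the ADP/ATP carriers, which export ATP from mitochondria, the germ cell form Slc25a31 was at 93.4 RPKM in mutant and 82.1 RPKM in control. The widely expressed Slc25a5 was at 115 RPKM in mutant and 192 RPKM in control, and Slc25a4 at 44.4 RPKM in mutant and 62.1 RPKM in control. The mutant column was also scaled so that germ cell markers had a median difference of 0. The log2 differences then became -0.096 for Cox7b2, 0.082 for Cyct and -0.44 for Slc25a31, against -0.80 for Cox7b, -0.998 for Cycs and -1.35 for Slc25a5. The impaired signalling is in germ cells, so these markers may themselves respond to it, which was not tested. Before scaling, their log2 differences ran from -1.23 for Sall4 to 1.11 for Zbtb16.

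Not every testis isoform followed this pattern. Cox6b2, the testis form of Cox6b, was at 10.6 RPKM in mutant and 14.6 RPKM in control, and the common form Cox6b1 at 279 RPKM in mutant and 410 RPKM in control. Cox8c, another testis form, was at 2.76 RPKM in mutant and 5.46 RPKM in control, which stood for about 39 mutant reads (95% Poisson interval 28 to 53) and 77 control reads (61 to 96). The common form Cox8a was at 307 RPKM in mutant and 421 RPKM in control. Both testis forms had lower values in the mutant, as their common forms did. The Cox6b2 values stood for about 137 mutant reads (95% Poisson interval 115 to 162) and 185 control reads (159 to 214). These intervals meet only at their ends and neither holds the other value. The difference was not tested. Without the trend of length and GC content the log2 difference of Cox6b2 was -0.051.

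Isoforms of muscle and of low-oxygen tissue were scarce, apart from Cox7a1. Cox7a1, the heart and skeletal muscle isoform, was 2.14-fold lower, at 9.45 RPKM in mutant and 20.3 RPKM in control, or about 124 mutant reads (95% Poisson interval 103 to 148) and 262 control reads (231 to 296). The common form Cox7a2 was at 133 RPKM in mutant and 202 RPKM in control. Cox7a2l, a related protein linked to the joining of complexes III and IV, was nearly equal at 166 RPKM in mutant and 169 RPKM in control. Cox8b, a muscle form, stood at 1.38 RPKM in mutant and 1.07 RPKM in control, about 12 and 9 reads, which the counting intervals do not tell apart. Cox6a2, also of muscle, was below 1 RPKM at 0.910 RPKM in mutant and 0.911 RPKM in control, and was the 1 gene of the set left out of the counts. Its common form Cox6a1 was at 242 RPKM in mutant and 398 RPKM in control. Cox4i2, known from lung and low oxygen, was at 1.71 RPKM in mutant and 2.30 RPKM in control, and Ndufa4l2, which low oxygen induces, at 2.43 RPKM in mutant and 3.12 RPKM in control. Ndufa4, which is grouped with complex I by its symbol but is a subunit of complex IV, was at 214 RPKM in mutant and 339 RPKM in control.

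Atp5g1, Atp5g2 and Atp5g3 encode the same mature c subunit of the membrane ring of complex V with different import sequences. Atp5g1 was at 209 RPKM in mutant and 257 RPKM in control, Atp5g2 at 128 RPKM in mutant and 166 RPKM in control, and Atp5g3 at 149 RPKM in mutant and 243 RPKM in control. All 3 were lower, Atp5g3 by 1.63-fold. Many genes of this set have processed pseudogenes, and how reads shared with such copies were counted is not stated, which leaves single values uncertain.

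**Figure D3:**
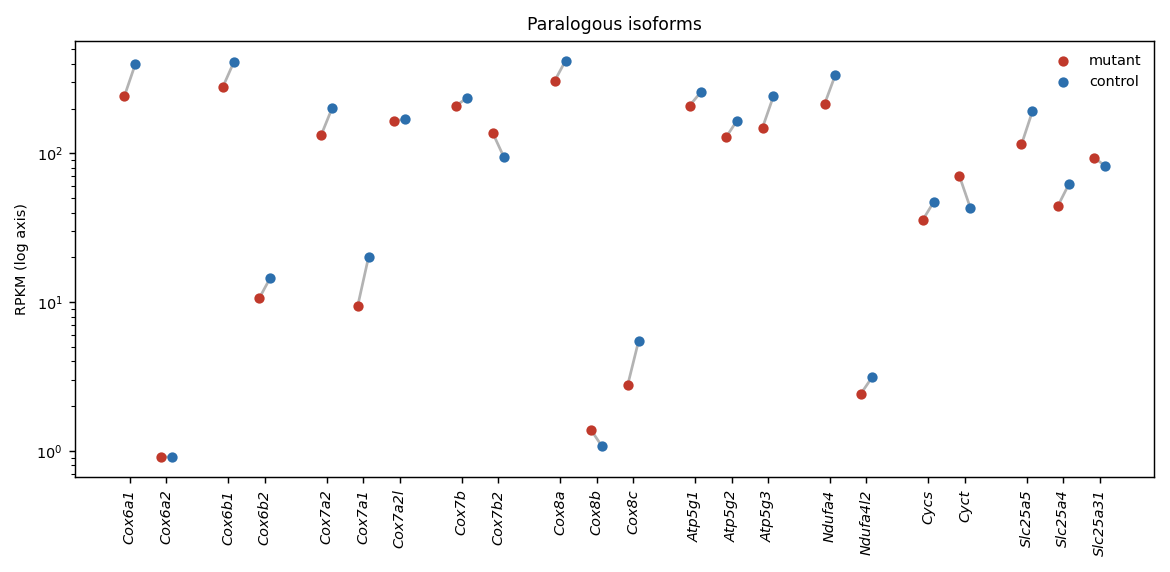
RPKM (log axis) of paralogous isoforms, mutant in red and control in blue, joined per gene. Cox7b2, Cyct and Slc25a31 lie higher in mutant, a direction that scaling to the germ cell markers turned for Cox7b2 and Slc25a31, while their common forms Cox7b, Cycs and Slc25a5 lie lower.

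The promoters of several of these genes are shown because most of the set differed in 1 direction and because nuclear oxidative phosphorylation genes are known for sites of NRF1, of ETS factors such as GABP, and of YY1. Windows ran from 250 bases before to 50 after the RefSeq start in GRCm38.p6, and 75 windows were found for 69 of the 83 genes. The motifs searched on both strands were the palindrome-like NRF1 core with 1 free position, the ETS letters CCGGAAG, and the YY1 core around the letters ATGGCGG with 1 free position. Matches are in capitals in the sequences, and no match of one motif overlaps another there. Sdha (chr13:74350191-74350490, minus strand) holds 3 NRF1 matches, Cox6a1 (chr5:115348909-115349208, minus strand) 2 of NRF1 and 1 of ETS, and Ndufs6 (chr13:73328433-73328732, minus strand) 1 of NRF1 and 1 of YY1. Cox7b2 (chr5:71548156-71548455, minus strand) and Cox7b (chrX:106015450-106015749, plus strand) hold no match to the letters searched. Other forms of these sites were not searched, so sites of these factors may still be present.
Sdha: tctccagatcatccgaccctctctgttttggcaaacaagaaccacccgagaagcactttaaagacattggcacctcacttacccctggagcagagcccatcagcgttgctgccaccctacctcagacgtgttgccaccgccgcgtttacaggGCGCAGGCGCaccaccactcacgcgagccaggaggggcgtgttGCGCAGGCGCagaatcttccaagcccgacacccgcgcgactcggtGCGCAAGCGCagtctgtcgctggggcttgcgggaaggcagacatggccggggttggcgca
Cox6a1: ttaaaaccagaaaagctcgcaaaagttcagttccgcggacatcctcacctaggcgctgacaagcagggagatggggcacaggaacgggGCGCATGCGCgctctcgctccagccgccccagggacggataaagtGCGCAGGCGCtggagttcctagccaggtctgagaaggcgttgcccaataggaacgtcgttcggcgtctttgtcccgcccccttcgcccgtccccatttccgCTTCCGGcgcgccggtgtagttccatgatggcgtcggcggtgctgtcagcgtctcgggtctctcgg
Ndufs6: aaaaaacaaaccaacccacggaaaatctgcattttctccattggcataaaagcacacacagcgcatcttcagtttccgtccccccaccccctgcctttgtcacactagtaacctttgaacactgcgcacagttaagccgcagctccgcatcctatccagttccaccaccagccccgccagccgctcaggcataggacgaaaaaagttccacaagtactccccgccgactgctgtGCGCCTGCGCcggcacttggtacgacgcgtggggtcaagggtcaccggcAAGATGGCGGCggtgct
Cox7b2: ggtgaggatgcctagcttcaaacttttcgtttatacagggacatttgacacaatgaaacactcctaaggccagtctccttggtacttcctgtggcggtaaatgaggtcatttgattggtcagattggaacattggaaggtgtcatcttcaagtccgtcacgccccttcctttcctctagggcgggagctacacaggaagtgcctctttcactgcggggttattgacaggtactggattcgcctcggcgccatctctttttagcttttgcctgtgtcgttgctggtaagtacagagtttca
Cox7b: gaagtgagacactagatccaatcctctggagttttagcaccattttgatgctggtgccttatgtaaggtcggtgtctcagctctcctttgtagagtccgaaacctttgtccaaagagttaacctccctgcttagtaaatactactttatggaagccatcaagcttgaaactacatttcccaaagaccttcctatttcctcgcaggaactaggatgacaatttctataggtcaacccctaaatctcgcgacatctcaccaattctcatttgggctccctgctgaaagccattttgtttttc

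The NRF1 motif was present in 24% of the windows of the set, in 4.60% of all 32851 promoter windows and in 9.35% of the 12186 windows of protein-coding genes of 1 RPKM or more. For ETS the shares were 21.3%, 8.86% and 16.2%, and for YY1 8%, 0.986% and 2.09%. The windows also differed in base composition, with a median GC content of 57.3% in the set, 52.7% in all windows and 60.7% in those of expressed protein-coding genes. A match does not show that a factor is bound. The size of the difference between genotypes was alike with and without the NRF1 motif: the median log2 difference was -0.43 for 17 genes with it and -0.41 for 52 genes without. For ETS it was -0.52 for 16 genes with the motif and -0.37 for 53 without, and for YY1 -0.18 for 5 genes with it and -0.42 for 64 without. None of these differences was tested.

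Other genes of the pathway were less uniform. Assembly factors, which build the complexes without staying in them, were lower for 30 of 47 (63.8%) and higher for 17, against 55.6% of protein-coding entries lower, with a median of -0.13. Without the trend of length and GC content 23 of 41 were lower, with a median of -0.046. The farthest below 0 were Lyrm7, a complex III factor, at 2.03 RPKM in mutant and 4.62 RPKM in control, and Pet100, a complex IV factor, at 8.25 RPKM in mutant and 14.1 RPKM in control. Farthest above it were Ttc19, a complex III factor, at 40.6 RPKM in mutant and 26.3 RPKM in control, and the complex I factor Ndufaf1 at 24.1 RPKM in mutant and 18.6 RPKM in control. Electron carrier and ATP export genes were lower for 10 of 15 (66.7%), with a median of -0.11, and without that trend for 9 of 15, with a median of -0.054. In that list Pdss1, which makes the tail of ubiquinone, was higher at 10.9 RPKM in mutant and 7.39 RPKM in control.

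All 14 TCA cycle genes were lower, against 55.6% of protein-coding entries, with a median of -0.22. After quantile normalization 12 were lower, without the trend with mean RPKM 13, and without that of length and GC content 10, with a median of -0.28. Idh2, the NADP-dependent isocitrate dehydrogenase, was at 41.3 RPKM in mutant and 86.9 RPKM in control, and Idh3b at 49.3 RPKM in mutant and 66.8 RPKM in control. Nearest to equal were Idh3g, at 57.3 RPKM in mutant and 57.4 RPKM in control, and Dlst, at 35.5 RPKM in mutant and 37.9 RPKM in control. The mitochondrial ribosome, which translates the mitochondrially encoded subunits, had 63 of 77 genes lower (81.8%) and a median of -0.24, or 47 of 71 lower and a median of -0.069 without the trend of length and GC content. Its extremes were Mrps28, at 10.2 RPKM in mutant and 23.3 RPKM in control, and Mrps6, at 45.1 RPKM in mutant and 33.5 RPKM in control in an entry shared with Slc5a3. Next to them were Mrpl36, at 23.4 RPKM in mutant and 36.7 RPKM in control, and Mrpl9, at 30.2 RPKM in mutant and 25.04 RPKM in control. Regulators of mitochondrial gene expression split evenly, 8 lower and 8 higher, with a median of -0.0091, while 4 of 15 were lower without the trend of length and GC content, with a median of 0.11. Lowest relative to control were Esrra, at 8.48 RPKM in mutant and 11.6 RPKM in control, and the GABP subunit gene Gabpb1, at 17.7 RPKM in mutant and 20.9 RPKM in control. Its paralog Gabpb2 was at 27.9 RPKM in mutant and 20.2 RPKM in control. Nrf1 was at 46.6 RPKM in mutant and 49.9 RPKM in control, and the mitochondrial DNA binding protein gene Ssbp1 at 93.8 RPKM in mutant and 65.5 RPKM in control.

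Transcript length moved with the result. The genes described here are short: 48 of them fell in the shortest decile of protein-coding entries, up to 758 nt. In that decile their median log2 difference was -0.52, against -0.21 for the other genes of the same length, and in the next it was -0.32 for 17 genes against -0.17. Short protein-coding entries were thus lower in the mutant in general, and this set was lower still. With the trend of transcript length and GC content removed, the median of the set was -0.20, with 67 of 81 genes below 0, where 49.9% of protein-coding entries were. By 1.5-fold 3 genes (3.70%) were lower against 11.2% of protein-coding entries, and by 2-fold 0 against 2.57%. Cytosolic ribosomal protein genes of the same short length, a comparison chosen after the values were seen, had a median of -0.015 over 39 genes, with 21 lower. Entries with joined symbols were not taken into this ribosomal list. With the trend of length and GC content removed, the list at all lengths had a median of 0.25, with 10 of 62 genes below 0. The part of length in the result beyond these values was not tested.

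**Figure D4:**
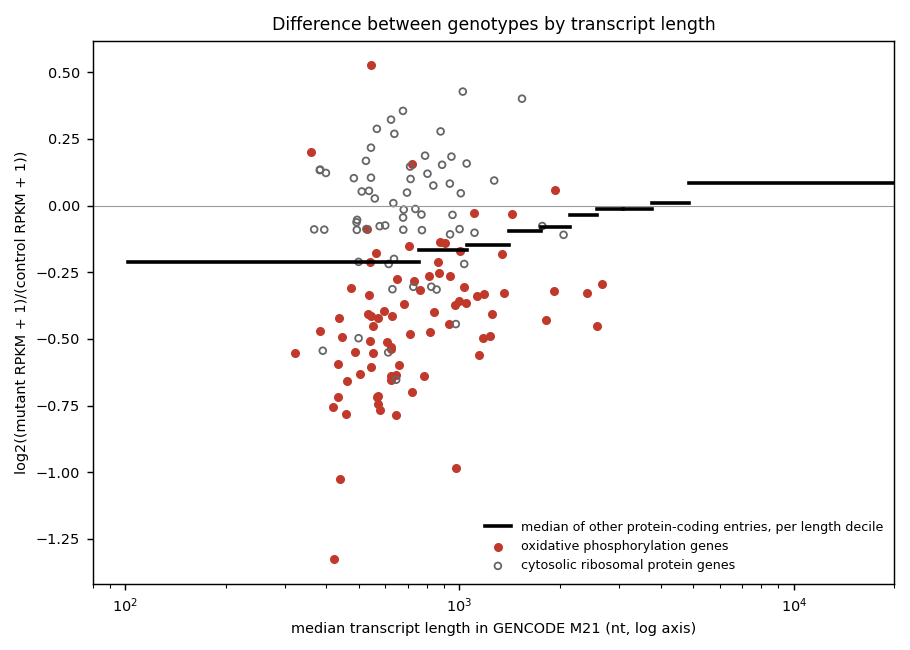
Log2 difference, mutant over control, against median annotated transcript length (log axis) for the genes described here (red), cytosolic ribosomal protein genes (open circles) and the median of the other protein-coding entries in each length decile (black bars). The red points lie mostly below the bars; the open circles spread around 0.

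Markers of other cells also moved with the result. Of 20 germ cell markers 19 were higher in the mutant, against 50.3% of all entries of 1 RPKM or more. Their median log2 difference was 0.58, and Ddx4, the germ cell RNA helicase, was at 114 RPKM in mutant and 88.6 RPKM in control. The exception was Sall4, at 30.3 RPKM in mutant and 72.3 RPKM in control (log2 difference -1.23). Of 40 measured markers of Sertoli, Leydig, macrophage and fibroblast or myoid cells 39 were lower, against 49.7% of all entries. The list medians ran from -1.39 to -0.71. Rhox5, a Sertoli marker, was higher, at 2.44 RPKM in mutant and 1.53 RPKM in control. No marker found in the table was listed at 0 in either genotype. The macrophage markers summed to 1623 RPKM in mutant and 4502 RPKM in control, the Leydig markers to 258 RPKM in mutant and 783 RPKM in control, the Sertoli markers to 214 RPKM in mutant and 441 RPKM in control, and the fibroblast and myoid markers to 632 RPKM in mutant and 1516 RPKM in control. Thy1 itself was at 8.61 RPKM in mutant and 7.11 RPKM in control. In bulk samples fewer cells of a type and less RNA per cell cannot be told apart, and the part of these cells in the difference of the oxidative phosphorylation genes was not tested. On the scale with the germ cell markers at 0, all 82 genes were lower, Cox7b2 included, as were 83.2% of all entries, with a median of -1.03 where that of all entries became -0.53.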

How the data were processed

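RNA of 4 libraries, 2 mutant and 2 control, was analysed from the table the authors deposited. Per the file headers its values are RPKM, with 1 column for both mutant libraries and 1 for both control libraries, so no test between genotypes was possible. Per the submitters' processing notes, TopHat2 2.0.11 and GRCm38 were used. No source used here names the counting program, the annotation or how libraries were combined. Members were found by the symbol rule, splitting joined symbols at commas. No symbol was repeated, and 4 members shared an entry with other symbols. Entry starts, 0-based in the table, were raised by 1. Entries with at least 1 RPKM in either genotype were compared with a pseudocount of 1. Transcript length and GC content are medians over the transcripts of GENCODE M21 (GRCm38), with 82 of 83 members matched. Their trend was removed by subtracting the median of 20 length bins and then of 20 GC bins over protein-coding entries, a step tested on simulated data. Depth was estimated from single-transcript genes, less 210 nt of length: 95.3% of 900 low mutant values and 89.4% of 884 low control values lay within 0.1 of a whole read. Promoter windows came from RefSeq. Members, lists and printed promoters were chosen with earlier results of these data known. Named genes were the 3 most abundant and the 2 extreme members of each complex, the 8 farthest past 1.5-fold, the complex I core, the isoforms, any member under 1 RPKM, and for related lists the 2 farthest each way; others were named after their values were seen. A withheld item is not reported here. Python 3.11.15 was used, with pandas 2.3.3 and numpy 2.4.6.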

Additional observations from a re-analysis of the deposited data

How the results depend on the processing

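No paired analysis was possible because both libraries of a genotype share 1 combined column, and for the same reason no library could be left out. The count of lower genes ran from 67 of 81 without the length and GC trend to 82 of 82 on the germ cell scaling. The shares of entries lower under these settings were 49.9% of protein-coding entries and 83.2% of all entries. Starting from 78 of 82, this count could hardly leave a bound of 1.5 times, so that bound says little about it. Pseudocounts of 0.1 and 0.5, the other filters, centring on the median of all genes, and leaving out joined entries or non-subunits changed no median or count of the set by more than 1.5 times. Summing repeated symbols could change nothing, since no member's symbol was repeated.

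Quantile normalization gave a complex V median of -0.26, with 10 of 82 genes lower by 1.5-fold (12.2%, against 14.4% of all entries), 1 higher (Cox7b2, against 11.2%) and 1 lower by 2-fold (against 4.30%). Removing the trend with mean RPKM gave -0.25 for complex V, with 11 lower by 1.5-fold (13.4%, against 14.6%), 1 higher (against 10.97%) and 1 lower by 2-fold (against 4.36%). Under both settings the share lower by 1.5-fold was thus not above that of all entries. Removing the trend of length and GC gave -0.20 for the whole set and, for complexes I to V, -0.19, -0.31, -0.21, -0.20 and -0.22, with 3 of 81 lower by 1.5-fold (3.70%, against 11.2% of protein-coding entries), 1 higher (against 8.62%) and 0 lower by 2-fold (against 2.57%). Scaling to the germ cell markers moved the median of all entries to -0.53. The set then had a median of -1.03, or -0.51 relative to all entries, and complexes I to V had -1.01, -1.10, -1.07, -1.11 and -1.04. Their ratios of summed RPKM were 0.483, 0.465, 0.472, 0.482 and 0.465, with 78 genes lower by 1.5-fold, where 44.8% of all entries were, and 46 by 2-fold, where 17.6% were.

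Over all 82 genes, 5 turned direction under quantile normalization: Cox7a2l to 0.074, Cox7b to 0.025, Ndufa7 to 0.16, Ndufb9 to 0.057 and Ndufv1 to 0.097. Without the mean RPKM trend 4 turned, Cox7a2l to 0.14, Ndufa7 to 0.079, Ndufb9 to 0.016 and Ndufv1 to 0.14. Without the length and GC trend 10 of 81 turned, Cox4i2 to 0.037, Cox7a2l to 0.12, Ndufa4l2 to 0.0025, Ndufa7 to 0.26, Ndufa8 to 0.070, Ndufb11 to 0.018, Ndufb9 to 0.16, Ndufs5 to 0.13, Ndufs7 to 0.026 and Ndufv1 to 0.20, as did the biogenesis regulators to 0.11. On the germ cell scaling the 4 higher genes turned, Atp5s to -0.31, Atp5sl to -0.54, Cox7b2 to -0.096 and Cox8b to -0.13, as did mt-Cytb to -0.44. Beyond what the settings do by construction, the cause was not tested. Depth limits the genes of a few RPKM, as Cox8b and Cox6a2.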
